A study of Mus musculus with 5 samples.

Results

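The genes of the vascular endothelial growth factor (VEGF) and angiopoietin signals were followed in single cells of mouse dorsal skin by droplet RNA sequencing. The 10 listed names are 9 genes, because Figf and Vegfd are an older and a newer symbol of 1 gene, and each was taken by its identifier from every count matrix. They are 5 ligand genes (Vegfa, Vegfc, Vegfd, Angpt1 and Angpt2) and 4 receptor genes (Flt1, Kdr, Flt4 and Tek), 9 of the 28001 features of the unsorted libraries and of the 31054 features of the sorted library. The mutant group was Lepr-Cre;mTmG;Smo+/- at postnatal day 46, with 2 libraries of unsorted skin cells. The control group was Lepr-Cre;mTmG at postnatal day 46, also with 2 libraries of unsorted skin cells, and the protocol writes its genotype with Smo after the reporter. A further library held GFP-positive cells sorted from Lepr-Cre;mTmG skin at postnatal day 50. All mice were female, and all carried Lepr-Cre, a recombinase driven from the leptin receptor gene, and mTmG, a reporter that turns on GFP in place of tomato once the recombinase has cut it. It is not given in the labels how the Smo allele, which codes for the Hedgehog signal transducer Smoothened, was changed. The replicates are described as technical, so the p-values below measure the spread between preparations and not that between animals.

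VEGF ligands are secreted proteins that bind receptor tyrosine kinases on endothelial cells. VEGF-A (Vegfa) acts through VEGFR-2 (Kdr) to drive growth and permeability of blood vessels, while VEGFR-1 (Flt1) binds VEGF-A tightly and also exists as a soluble decoy. VEGF-C and VEGF-D (Vegfc, Vegfd) act through VEGFR-3 (Flt4), the main receptor of lymphatic growth. Angiopoietin 1 (Angpt1) activates TIE2 (Tek) and stabilises vessels, and angiopoietin 2 (Angpt2) acts on the same receptor as a blocker or a weak activator, depending on context. In mouse skin, VEGF-A of the follicle is known to support the vessels that surround a growing hair.

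The 4 unsorted libraries held 11563 and 11816 barcodes in mutant skin and 10748 and 11072 barcodes in control skin, and the sorted library held 455. Of these, 8324 and 8620 mutant cells, 8042 and 8197 control cells and 432 sorted cells were kept, with medians of 8251 to 9716 unique molecular identifiers (UMIs) per unsorted cell and 2208.5 per sorted cell. Totals ranged over 147245343 to 171197845 UMIs for the unsorted libraries, against 1138206 UMIs for the sorted library. The unsorted libraries shared up to 192 barcodes per pair, and the sorted library shared none with them. Each cell was placed in a gate by its marker genes, none of which is a member, and 16 gates had at least 20 cells in each unsorted library. The papilla gate held 7.44% and 7.30% of mutant cells and 2.77% and 2.71% of control cells, and the fibroblast gate held 12.7% and 12.9% of mutant cells and 9.14% and 8.48% of control cells. The smallest two-sided p that an exact permutation test can give with 2 against 2 libraries is 0.333. Levels are CPM, the UMIs of a gene over all UMIs of the gate, scaled to a fixed total; an exact 95% Poisson interval covers counting error only, and fewer expressing cells cannot be told apart from less RNA per cell in such a sum.

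The blood endothelial gate was small, with 40 and 50 mutant cells and 35 and 36 control cells. Its cells carried Cdh5, the junctional cadherin of endothelium, at 908 to 1106 CPM and Vwf, the clotting factor of vein and large-vessel endothelium, at 250 to 329 CPM. Car4 and Gpihbp1, genes of capillary endothelium, were at or near 0 there, with highest values of 2.11 and 6.12 CPM. The lymphatic endothelial gate held 295 and 268 mutant cells and 202 and 212 control cells, with Prox1, the regulator of lymphatic identity, at 1009 to 1167 CPM. Prox1 stood at 110 and 91.8 CPM in the mutant and 39.95 and 90.7 CPM in the control blood gate, and Lyve1, a lymphatic hyaluronan receptor, had no UMI there. The whole list of 8 lymphatic markers summed to 3311 and 3411 CPM in the mutant and 3356 and 3136 CPM in the control blood gate, close to the sums of its own list, 3910 and 3607 CPM in mutant and 3723 and 3923 CPM in control libraries. Pecam1 and Cdh5, which stand on both lists, and Cldn5, a tight junction gene of endothelium in general, made up most of that lymphatic sum, with Cldn5 alone at 1228 to 1504 CPM. Of the 161 blood endothelial cells, 126 lay in a single cluster of an unsupervised grouping, 18 lay in the cluster that held 964 of the 977 lymphatic cells, and the rest lay in papilla clusters. In the main blood cluster Prox1 stood at 12.1 and 16.9 CPM in mutant and 13.1 and 11.4 CPM in control cells, while in the other 35 cells it stood at 704 and 493 CPM in mutant and 576 and 1028 CPM in control libraries.

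The receptor genes lie, in the GENCODE vM21 annotation of GRCm38, at chr5:147561604-147726011 (Flt1, minus strand), chr5:75932827-75978458 (Kdr, minus strand), chr11:49609263-49652739 (Flt4, plus strand) and chr4:94739289-94874976 (Tek, plus strand). The ligand genes lie at chr17:46016993-46032369 (Vegfa, minus strand), chr8:54077606-54187096 (Vegfc, plus strand), chrX:164373378-164402650 (Vegfd, plus strand), chr15:42424723-42676977 (Angpt1, minus strand) and chr8:18690263-18741562 (Angpt2, minus strand). All 9 are protein-coding. The promoters of 3 receptor genes whose transcripts marked endothelium are shown with that of Vegfa, whose transcript was found in every gate. Each is the 250 bases before the RefSeq start on GRCm38.p6, written 5′ to 3′ on the strand of the gene. They lie at chr5:147726012-147726261 (minus strand) for Flt1, chr5:75978456-75978705 (minus strand) for Kdr, chr4:94739039-94739288 (plus strand) for Tek and chr17:46032378-46032627 (minus strand) for Vegfa, which has 2 starts listed, the more upstream being used. Capitals mark GGAA, the core of sites bound by ETS factors, or TTCC, the same core on the other strand.
Flt1: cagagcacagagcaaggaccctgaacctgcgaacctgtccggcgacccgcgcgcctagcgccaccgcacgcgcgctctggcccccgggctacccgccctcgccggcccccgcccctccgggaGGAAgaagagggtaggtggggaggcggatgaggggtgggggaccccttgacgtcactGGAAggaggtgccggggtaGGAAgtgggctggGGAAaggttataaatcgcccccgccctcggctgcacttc
Kdr: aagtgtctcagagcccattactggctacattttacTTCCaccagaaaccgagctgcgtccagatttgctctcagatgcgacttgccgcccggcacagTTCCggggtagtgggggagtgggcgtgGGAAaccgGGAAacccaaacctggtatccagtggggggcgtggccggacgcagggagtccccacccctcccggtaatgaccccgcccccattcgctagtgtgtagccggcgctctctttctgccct
Tek: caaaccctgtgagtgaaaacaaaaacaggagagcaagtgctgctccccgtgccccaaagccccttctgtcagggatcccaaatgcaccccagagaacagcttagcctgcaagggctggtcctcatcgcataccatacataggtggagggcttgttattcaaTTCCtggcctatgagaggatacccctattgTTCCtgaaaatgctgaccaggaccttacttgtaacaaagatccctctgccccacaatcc
Vegfa: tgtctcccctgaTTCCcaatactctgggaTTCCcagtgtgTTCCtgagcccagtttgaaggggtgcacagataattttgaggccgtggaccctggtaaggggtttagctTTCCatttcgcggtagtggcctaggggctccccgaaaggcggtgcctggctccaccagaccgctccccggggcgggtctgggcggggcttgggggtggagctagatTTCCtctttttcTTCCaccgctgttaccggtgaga
The core occurred 4 times in the Flt1, 4 times in the Kdr, 2 times in the Tek and 6 times in the Vegfa window. It is frequent by its length: 93.4% of the 32851 promoters of the same length held it on either strand, with a median of 3 copies. The longer GGGCGG box, searched with its reverse complement CCGCCC, occurred 3 times before Flt1, 2 times before Kdr and 2 times before Vegfa, was not found in the Tek window, and was present in 32.7% of all promoters. G and C made up 51.2% of the Tek window, against 70.4% for Flt1 and 61.6% for Kdr.

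In the unsorted libraries receptor transcripts concentrated in the endothelial gates, and the blood and lymphatic gates divided them. Flt1 was highest in the blood endothelial gate, at 485 and 561 CPM in the mutant and 774 and 485 CPM in the control libraries. Tek was also highest there, at 95.3 and 97.9 CPM in the mutant and 92.4 and 103 CPM in the control libraries. Kdr and Flt4 were instead highest in the lymphatic gate. Kdr stood there at 207 and 201 CPM in mutant and 216 and 240 CPM in control libraries, and in the blood gate only at 12.4 and 24.5 CPM in mutant and 37.5 and 10.6 CPM in control libraries. In the main cluster of the blood gate, which held 21 of its 38 Kdr UMIs, Kdr stood at 7.24 and 12.1 CPM in mutant and 31.5 and 2.29 CPM in control libraries, the last from 1 UMI. Flt4 stood at 369 and 330 CPM in mutant and 478 and 477 CPM in control lymphatic cells, and at 12.5 to 23.2 CPM in blood endothelial cells of the 4 libraries. For all 4 receptors the values of the leading gate lay above every value of every other gate of the unsorted libraries. The blood gate there was poor in the capillary genes Car4 and Gpihbp1. Among the 67 sorted blood endothelial cells described below, of another chemistry and age, 29 had a Kdr UMI and none had a Flt4 UMI. The place of Kdr given here is therefore that of the unsorted gates only.

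**Figure D1:**
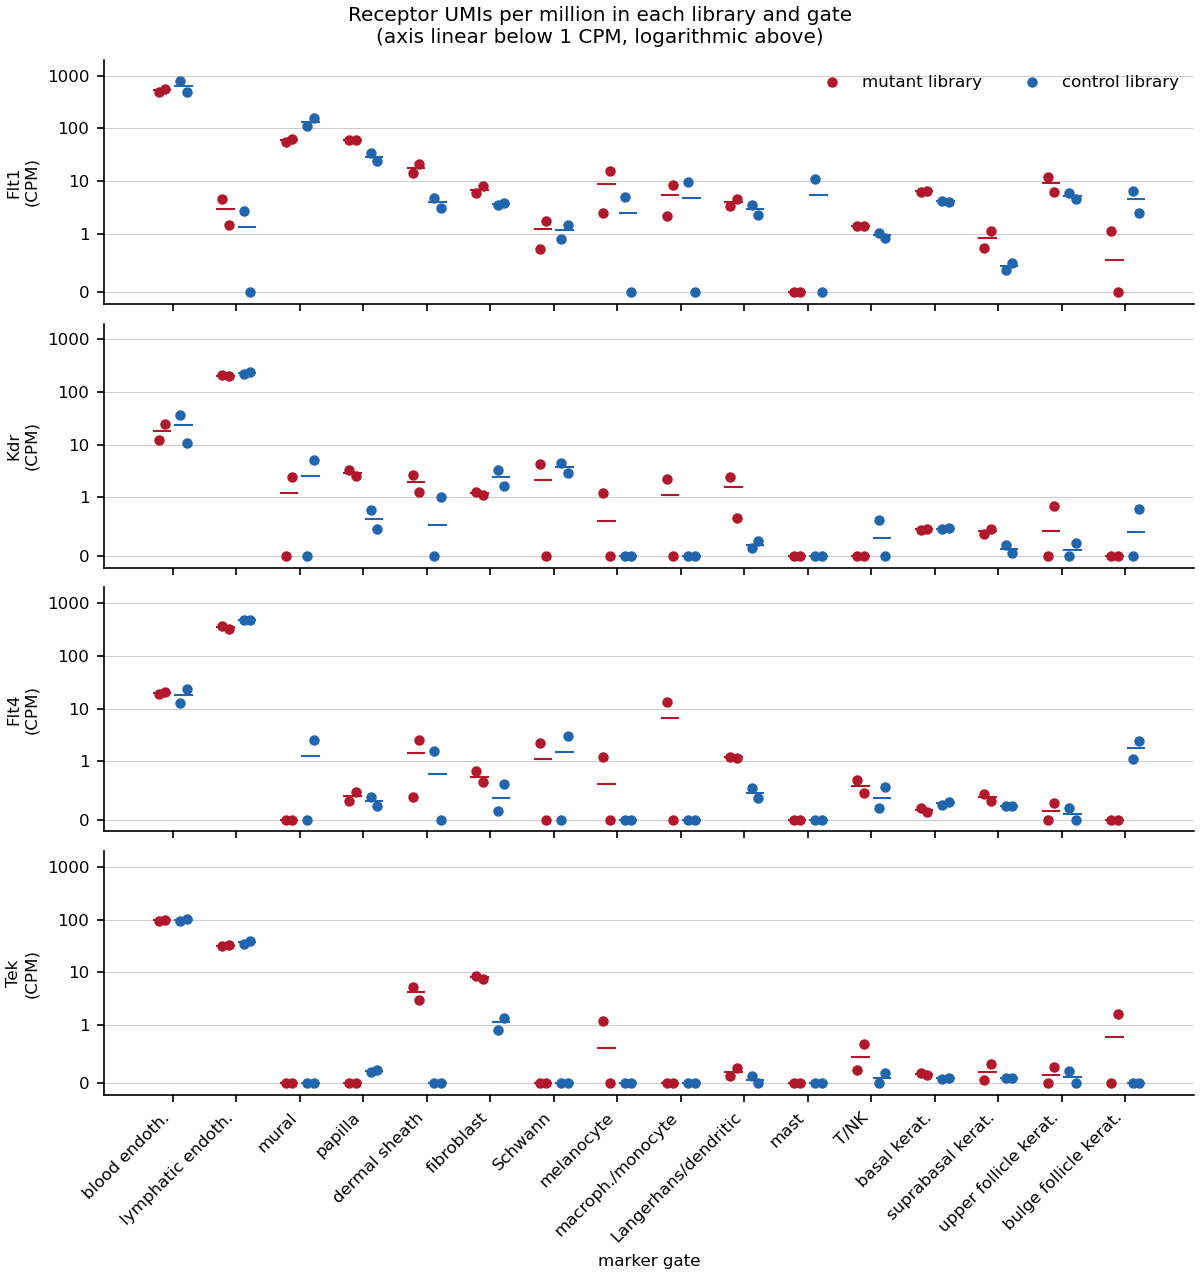
Receptor levels (CPM, on an axis that is linear below 1 and logarithmic above) in 16 marker gates. Points are libraries, mutant left of control within each gate, and short lines are means of 2 libraries. Flt1 and Tek peak in the blood endothelial gate, Kdr and Flt4 in the lymphatic gate, and Flt1 also stands at 23.7 to 153 CPM in the mural and papilla cells of the unsorted libraries.

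Direct comparison of the 2 endothelial gates, with the library as a block, gave 6 called differences among the 9 members. A member was called at an adjusted p under 0.05 with a log2 change of at least 1, and 19.3% of all genes were called in this comparison. Flt1 was higher in blood than in lymphatic cells by 7.82 ± 0.40 (log2, SE; adjusted p = 4.5e-23, edgeR quasi-likelihood test). Vegfc was higher by 4.90 ± 0.46 (adjusted p = 7.9e-13) and Tek by 1.42 ± 0.31 (adjusted p = 0.00029). The other 3 called members were lower in blood than in lymphatic cells. Flt4 was lower, at -4.57 ± 0.25 (adjusted p = 3.7e-21), Kdr at -3.53 ± 0.33 (adjusted p = 8.0e-13) and Angpt2 at -3.36 ± 0.38 (adjusted p = 1.2e-10), all by the edgeR quasi-likelihood test. Vegfa was 0.77 ± 0.22 higher in blood, under the fold minimum (adjusted p = 0.0044, edgeR). Vegfd and Angpt1 did not pass (adjusted p = 0.32 and 0.16, edgeR).

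Against all 15 other gates, Flt1 and Tek were called higher in the blood endothelial gate in 15 of 15 comparisons. Kdr and Flt4 were each called higher in 14 and lower in 1, the lymphatic gate. Over the 9 members 102 of 135 comparisons were called, 92 of them higher in blood endothelial cells, where 30.1% of all gene comparisons were called in either direction and 13.8% were called higher. Outside endothelium Flt1 was next highest in the mural gate, which holds pericytes and vascular smooth muscle, at 54.2 and 63.8 CPM in mutant and 111 and 153 CPM in control libraries. The papilla gate followed, and the step from mural to papilla cells was 1.25 ± 0.28 (log2, SE; adjusted p = 0.00035, edgeR), with 20.9% of all genes called between these gates. Tek had no UMI in the mural gate of any library, where a count of 0 allows up to 6.02 and 7.37 CPM in mutant and 8.31 and 7.66 CPM in control libraries. Kdr below its 2 endothelial gates stood at means of at most 2.96 CPM, and its neighbours from the Schwann gate downward did not differ beyond their spread in this test (smallest adjusted p = 0.64, edgeR).

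Some cells carried UMIs of 2 receptor genes. In the lymphatic gate 232 of 563 mutant and 155 of 414 control cells had UMIs of both Kdr and Flt4. In the blood gate 40 of 90 mutant and 33 of 71 control cells had UMIs of both Flt1 and Tek, while 5 mutant and 7 control cells had both Flt1 and Kdr. These are counts of cells with at least 1 UMI and fall with the depth of a cell.

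Of the growth factors, only Vegfa had UMIs in every gate of every unsorted library. Its highest mean was in the gate of macrophage and monocyte markers, at 212 and 147 CPM in mutant and 321 and 200 CPM in control libraries, from 32 to 36 cells per library. That gate carried antigen-presentation genes of the Langerhans and dendritic list, at a median of 569 per 10000 UMIs of a cell against 18.1 for its own list, so its name rests on the smaller signal. The papilla gate followed at 149 and 131 CPM in mutant and 132 and 137 CPM in control libraries. Blood endothelial cells stood at 141 and 108 CPM in mutant and 127 and 112 CPM in control libraries, and fibroblasts at 120 and 107 CPM in mutant and 111 and 100 CPM in control libraries. Papilla and blood endothelial cells did not differ beyond their spread (0.05 ± 0.19 log2, adjusted p = 0.84, edgeR), nor did papilla cells and fibroblasts (0.07 ± 0.16, adjusted p = 0.71, edgeR). The lowest mean, 26.5 CPM, was in suprabasal keratinocytes.

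Because keratinocytes were numerous and deeply counted, the order of levels was not the order of totals. Basal keratinocytes gave 32.6% to 39.7% of all Vegfa UMIs of a library and fibroblasts 7.86% to 13.9%. Langerhans and dendritic cells gave 9.32% to 11.5% and papilla cells 7.07% to 8.82%. Cells in no gate gave 12.4% to 18.98%. These shares follow the cells captured and their depth.

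Vegfc, the lymphatic growth factor, had 3 sources above 40 CPM. The mast cell gate led at 117 and 135 CPM in mutant and 216 and 159 CPM in control libraries, from 22 to 29 cells each. Blood endothelial cells had 104 and 89.8 CPM in mutant and 59.9 and 67.5 CPM in control libraries. Fibroblasts had 42.3 and 44.9 CPM in mutant and 50.6 and 46.7 CPM in control libraries. Mast and blood endothelial cells did not differ past the threshold (0.79 ± 0.34 log2, adjusted p = 0.081, edgeR), and blood endothelial cells stood above fibroblasts by 0.68 ± 0.25 (adjusted p = 0.023, edgeR), under the fold minimum. By number of UMIs fibroblasts were the main source, with 47.6% to 51.8% of the Vegfc UMIs of a library. Papilla cells gave 7.89% to 14.4% and dermal sheath 1.89% to 6.67%, at lower levels per UMI. Blood endothelial cells gave 3.49% to 4.89% and mast cells 1.49% to 2.91%. Cells in no gate gave 22.8% to 25.2%. Lymphatic cells, where Flt4 was highest, had 0 to 5.76 CPM of Vegfc.

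Vegfd, the second ligand of VEGFR-3, was a low transcript of mesenchyme and basal keratinocytes. Its means were 17.5 ± 1.33 CPM in fibroblasts, 15.7 ± 1.36 CPM in dermal sheath, 12.9 ± 1.26 CPM in papilla and 9.76 ± 0.458 CPM in basal keratinocytes (SD, n = 4 libraries). Neighbours in this order did not differ past the threshold (adjusted p = 0.12, 0.18 and 0.39, edgeR). Basal keratinocytes nevertheless gave 39.3% to 60.4% of the Vegfd UMIs of a library. Mast cells had none.

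**Figure D2:**
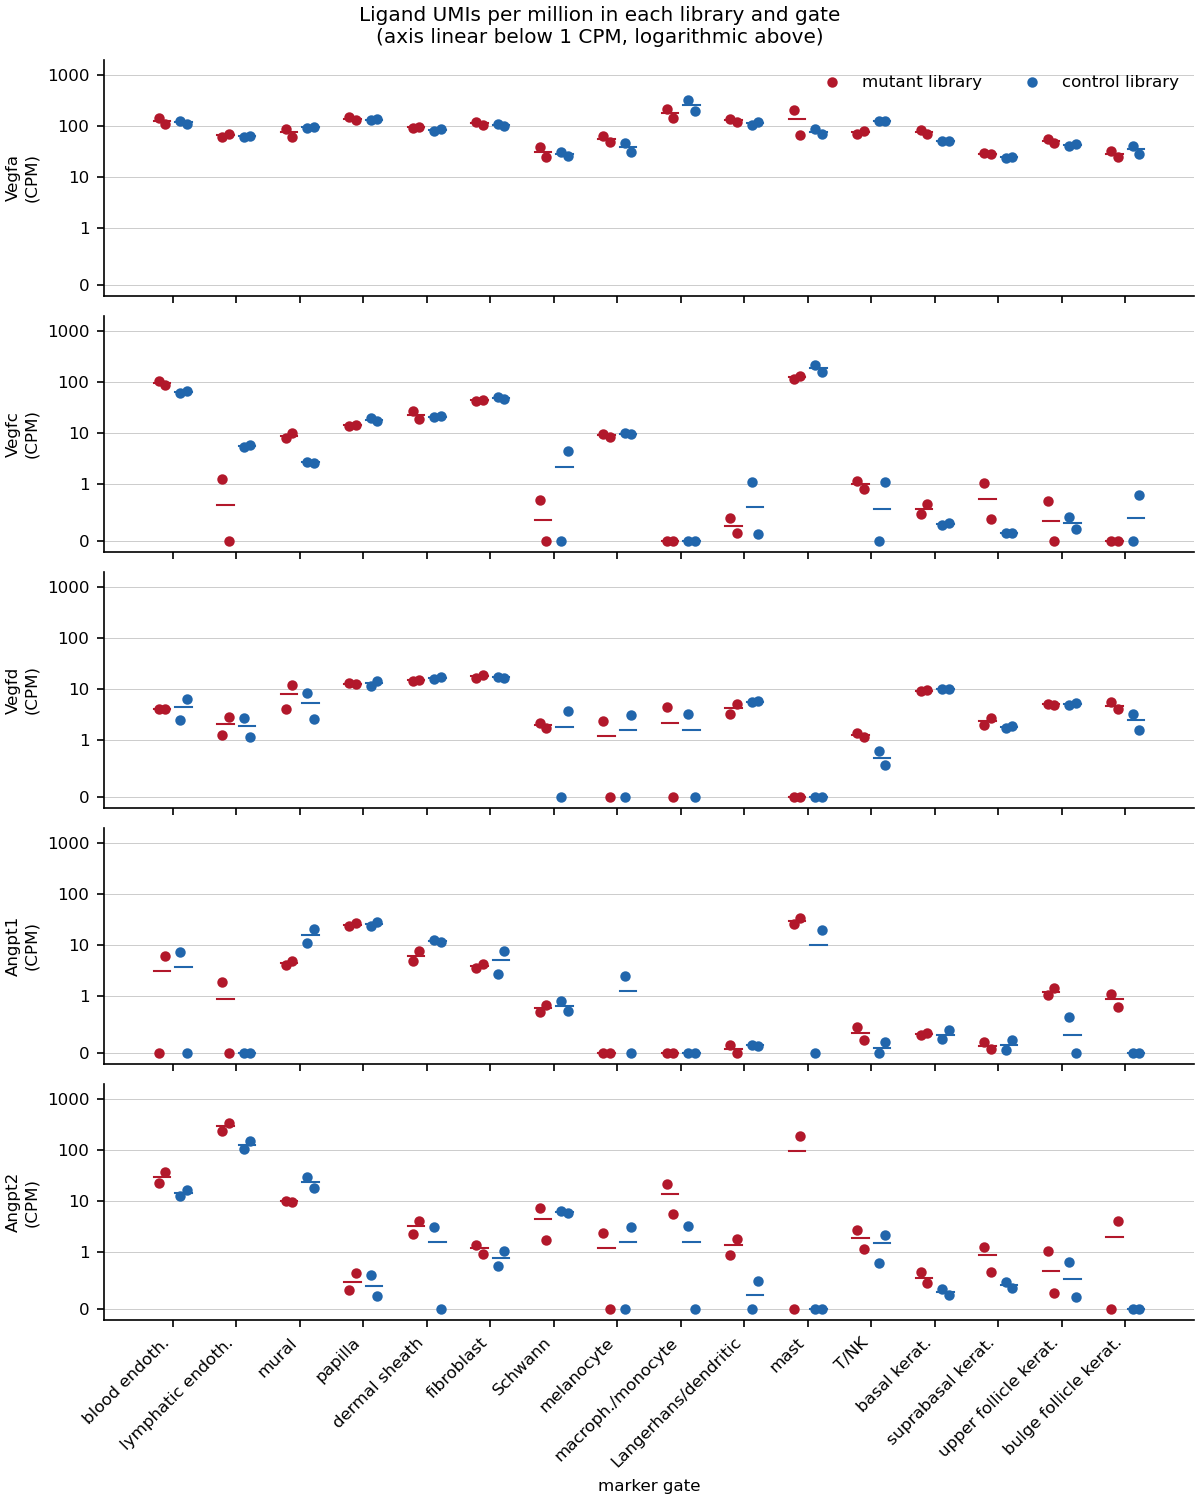
Ligand levels (CPM, on an axis that is linear below 1 and logarithmic above) in 16 marker gates. Points are libraries, mutant left of control within each gate, and short lines are means of 2 libraries. Vegfa is found in every gate. Vegfc is highest in mast, blood endothelial and fibroblast cells, Angpt1 in papilla cells and Angpt2 in the lymphatic gate.

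The 2 angiopoietins came from different gates. Angpt1, the activator of TIE2, was highest in the papilla gate, at 23.3 and 26.7 CPM in mutant and 23.7 and 28.02 CPM in control libraries. It was higher there than in fibroblasts by 2.27 ± 0.22 (log2, SE; adjusted p = 2.5e-13, edgeR) and than in dermal sheath by 1.66 ± 0.28 (adjusted p = 2.1e-06, edgeR), where 26.6% and 20.5% of all genes were called. Mural cells, a known source of angiopoietin 1 elsewhere, had 4.02 to 20.4 CPM and were lower than papilla cells by 1.29 ± 0.41 on the log2 scale (adjusted p = 0.010, edgeR). The mast gate had a mean of 19.7 CPM that rested on 11 UMIs.

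Angpt2 was highest in the lymphatic gate, with a mean of 211 CPM over the 4 libraries. It was higher there than in mural cells by 3.81 ± 0.41 (log2, SE; adjusted p = 3.1e-11, edgeR), than in fibroblasts by 7.66 ± 0.37 (adjusted p = 1.2e-25) and than in papilla cells by 9.07 ± 0.43 (adjusted p = 1.2e-25), where 24.8%, 27.3% and 30.9% of all genes were called. The mast gate followed only through 23 UMIs in 1 cell of the second mutant library, and the other mast cells had none. Blood endothelial cells had a mean of 22.2 CPM and did not differ from mural cells, at 17.1 CPM, beyond their spread (adjusted p = 0.66, edgeR). The main blood cluster held 126 of these 161 cells but only 19 of the 42 Angpt2 UMIs, at 12.1 CPM in mutant and 11.0 CPM in control cells, with the libraries of a genotype summed. Cells with UMIs of both Angpt2 and its receptor gene Tek were 36 of 563 mutant and 15 of 414 control lymphatic cells.

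The genotype call of a member within endothelium was that of Angpt2 in lymphatic cells. It stood at 241 and 344 CPM in mutant and 105 and 153 CPM in control libraries, from 377 and 478 mutant and 78 and 133 control UMIs. Both mutant libraries lay above both control libraries, and the share of all genes that do so is not given here. The change was 1.19 ± 0.16 (log2, SE; adjusted p = 1.6e-05, edgeR quasi-likelihood test), where 0.697% of all genes were called. Without the second mutant library the Angpt2 change was 0.94, and without the first control library 0.98, both under the fold minimum (edgeR). Each of these fits had 1 library in a genotype. The transcript was spread over cells, since 125 of 295 and 129 of 268 mutant cells and 40 of 202 and 51 of 212 control cells had a UMI, and no cell had more than 24. Lymphatic cells of mutant skin were also deeper, with medians of 4679 and 4464 UMIs, against 3313.5 and 3722 in control skin. With each cell thinned to 2000 UMIs, which left out 15 and 15 mutant and 17 and 19 control cells, the shares with a UMI were 28.2% and 37.2% in mutant and 14.1% and 15.5% in control cells. The same thinned share in papilla cells was at most 0.461% in any unsorted library, at medians of 6556 to 15868 UMIs.

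Flt4, the receptor gene of the same cells, was lower in the mutant libraries, at 369 and 330 CPM against 478 and 477 CPM in control libraries. Its change of -0.41 ± 0.10 (log2, SE) passed the adjusted threshold (adjusted p = 0.018, edgeR) but not the fold minimum. Kdr (-0.13 ± 0.12), Tek (-0.17 ± 0.24) and Vegfa (0.11 ± 0.18) did not pass in lymphatic cells (adjusted p = 0.64, 0.78 and 0.82, edgeR). Of the immediate early and heat shock genes, which are known to respond to tissue handling, 8 of 14 passed the adjusted threshold in lymphatic cells under the fold minimum (edgeR). Fos (-0.66 ± 0.08), Fosb, Atf3, Zfp36, Ier2 and Jun were lower in the mutant, and the heat shock genes Hspb1 (0.46 ± 0.08) and Hsph1 (0.45 ± 0.09) were higher, and their part in the Angpt2 difference was not tested. Of 17 marker lists, those of macrophages and of bulge keratinocytes had 1 called member each in the lymphatic gate, Cd14 and Postn, both higher. The summed macrophage markers were 56.8 and 57.6 CPM in mutant and 38.9 and 39.2 CPM in control libraries, with C1qa, C1qb and Ms4a7 at 0, and their part in the Angpt2 difference was not tested.

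**Figure D3:**
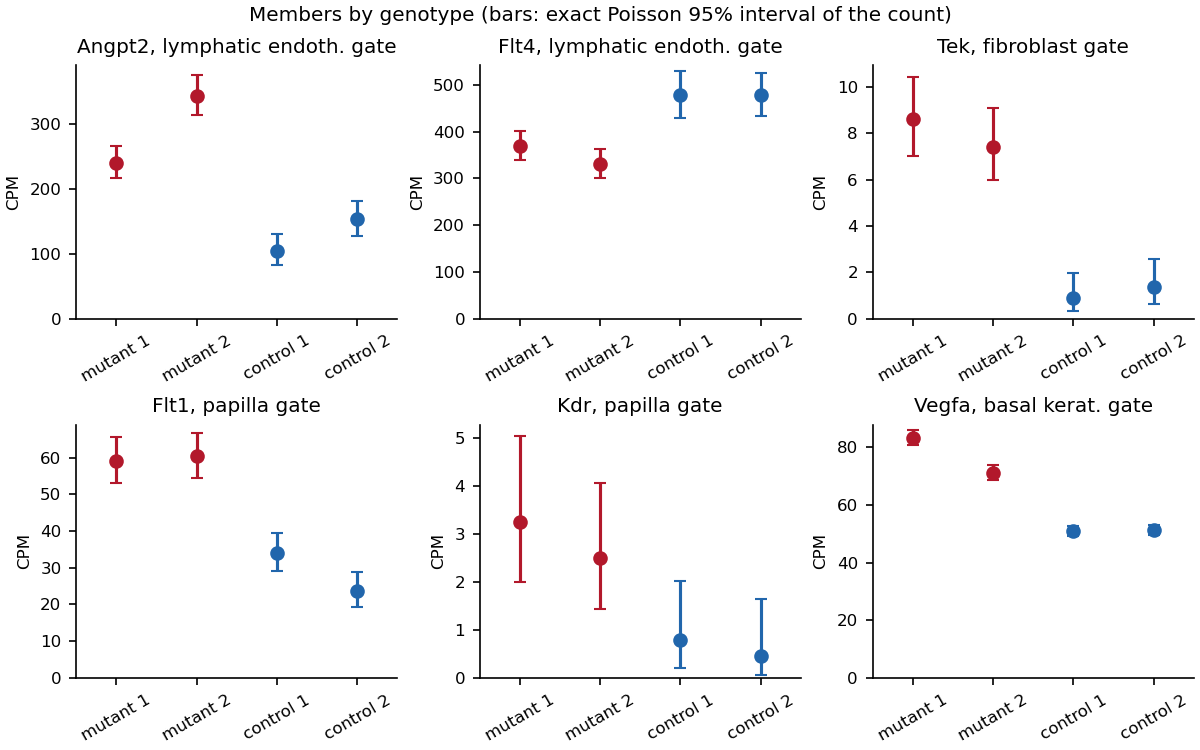
Levels (CPM) of 6 member and gate pairs in the 2 mutant and 2 control libraries, with bars for the exact 95% Poisson interval of each count. The 6 pairs are taken from the 9 that passed the adjusted threshold, so the gap between genotypes in the panels comes with that choice. Flt4 in lymphatic cells is the only pair shown that is lower in the mutant.

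Outside endothelium, 2 receptor genes were higher in mutant papilla cells and 1 in mutant fibroblasts. Flt1 in the papilla gate stood at 59.1 and 60.3 CPM in mutant and 34.0 and 23.7 CPM in control libraries, a change of 1.06 ± 0.14 (log2, SE; adjusted p = 3.1e-05, edgeR). Kdr in the same gate stood at 3.27 and 2.5 CPM in mutant and 0.790 and 0.456 CPM in control libraries, from 36 mutant and 6 control UMIs, a change of 2.17 ± 0.54 (adjusted p = 0.0081, edgeR). Without the second control library, which left 1 control library, the Flt1 change was 0.83, under the fold minimum (edgeR). The Kdr call was lost with DESeq2 (adjusted p = 0.14). It was also lost without the first mutant library and without the second control library (edgeR), fits with 1 library in a genotype. Of all genes tested in the papilla gate, 5.37% were called. Tek in fibroblasts stood at 8.61 and 7.43 CPM in mutant and 0.906 and 1.35 CPM in control libraries, a change of 2.85 ± 0.29 (adjusted p = 6.2e-05, edgeR), with 1.55% of all genes called.

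The cells in which these transcripts lay differed between genotypes. Of the Tek UMIs of mutant fibroblasts, 141 of 196 came from 336 cells of a cluster, numbered 22, that held 3 control fibroblasts, at 27.8 CPM. In the cluster numbered 17, with 529 mutant and 267 control fibroblasts, Tek stood at 5.20 CPM in mutant and 1.48 CPM in control cells, from 36 mutant and 5 control UMIs. In the cluster numbered 19 it stood at 5.02 CPM in mutant and 5.21 CPM in control fibroblasts. For Flt1, the papilla cluster numbered 4 had 77.6 CPM in mutant and 44.3 CPM in control cells, and the cluster numbered 13 had 19.3 CPM in mutant and 12.3 CPM in control cells. The papilla cluster numbered 16 held 368 mutant cells and 1 control cell, with 58.9 CPM of Flt1 and 7.82 CPM of Kdr, which is 21 of the 36 Kdr UMIs of mutant papilla cells. Clusters 16 and 22 were almost wholly mutant, so genotype and cluster cannot be told apart in them. With all clusters left out that were at least 95% of 1 genotype, a choice made after seeing the data, the Flt1 change in papilla cells was 1.11 (adjusted p = 1.4e-06, edgeR) and Kdr there had too few counts to be tested. The Tek change in fibroblasts was then 1.34 and no longer passed (adjusted p = 0.083, edgeR).

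Depth and markers moved with genotype in the papilla gate. Its cells had medians of 6668 and 6556 UMIs in mutant and 15868 and 11439.5 UMIs in control skin, and cells with a Flt1 UMI were 22.9% and 24.2% of mutant and 31.8% and 23.4% of control cells. Thinned to 2000 UMIs, these shares were 8.20% and 8.70% in mutant and 6.91% and 3.72% in control cells. Called higher in mutant papilla cells were 4 of 8 fibroblast markers, 6 of 7 dermal sheath markers and 5 of the 5 tested Langerhans and dendritic markers. Summed, the sheath markers stood at 174 and 187 CPM in mutant and 56.1 and 58.8 CPM in control papilla cells, and the 8 blood endothelial markers at 277 and 289 CPM in mutant and 291 and 326 CPM in control papilla cells. No marker of these lists was at 0, and their part in the Flt1 and Kdr differences was not tested. In the fibroblast gate, Cdh5 was called higher with Tek, at 11.3 and 13.6 CPM in mutant and 3.88 and 4.15 CPM in control libraries on the TMM scale, while the 8 blood endothelial markers summed to 139 and 142 CPM in mutant and 136 and 137 CPM in control libraries.

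**Figure D4:**
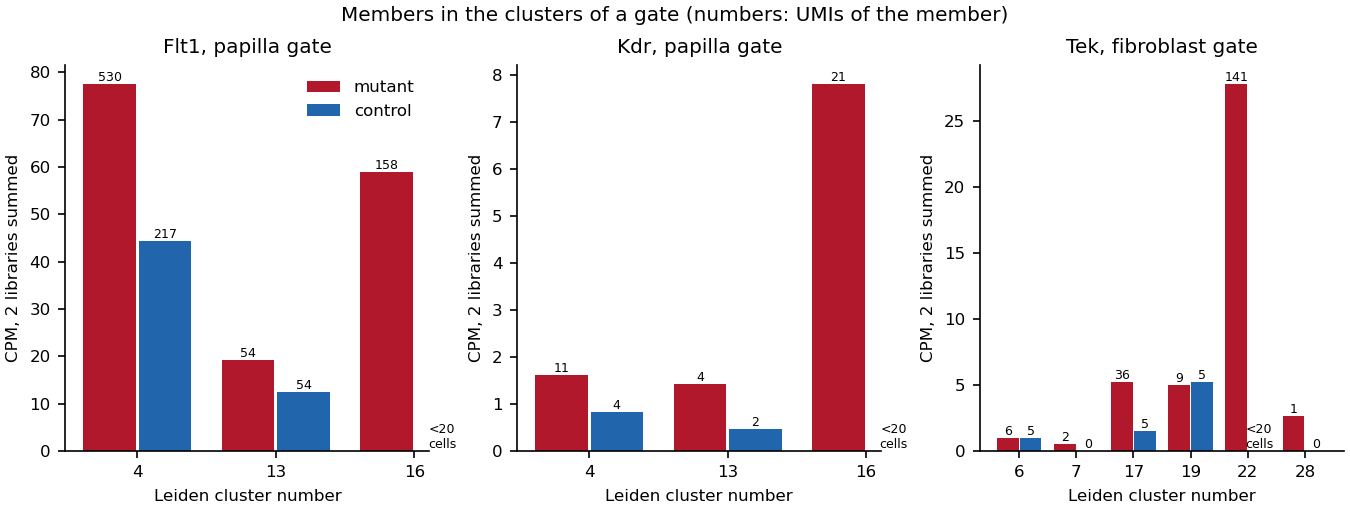
Flt1 and Kdr in the clusters of the papilla gate and Tek in those of the fibroblast gate, as CPM of the 2 libraries of a genotype summed, mutant left of control. Numbers on the bars are UMIs, and groups with under 20 cells are not drawn. Kdr and Tek are highest in clusters 16 and 22, which hold almost only mutant cells.

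In all, 56 of 144 pairs of a member and a gate had enough counts to be tested for genotype, and 4 were called, all higher in the mutant: Angpt2 in lymphatic cells, Flt1 and Kdr in papilla cells and Tek in fibroblasts. That is 7.14% of the pairs tested, where 1.56% of all gene tests in the 16 gates were called and 1.03% were called higher. A further 5 passed the adjusted threshold under the fold minimum, and 8.32% of all gene tests passed that threshold at any fold. Vegfa in basal keratinocytes was among them, at 83.4 and 71.2 CPM in mutant and 51.0 and 51.3 CPM in control libraries (0.57 ± 0.05 log2, adjusted p = 1.5e-08, edgeR). Vegfa in T and natural killer cells went the other way, at 70.9 and 78.9 CPM in mutant and 125 and 124 CPM in control libraries (-0.80 ± 0.08, adjusted p = 2.1e-05, edgeR). Markers of fibroblasts moved with genotype in both gates, 5 of 8 being called higher in mutant cells of each, where 2.2% and 3.37% of all genes were called in basal keratinocytes and in T and natural killer cells. Summed, they stood at 348 and 351 CPM in mutant and 244 and 255 CPM in control basal keratinocytes, and at 379 and 612 CPM in mutant and 193 and 225 CPM in control T and natural killer cells. None of the 8 was at 0, and their part in the Vegfa differences was not tested. Flt1 in fibroblasts (0.96 ± 0.24) and in basal keratinocytes (0.61 ± 0.10) was higher in the mutant (adjusted p = 0.026 and 6.5e-05, edgeR). For fibroblast Flt1, 5 of 16 alternatives gave another result, with changes of 0.62 to 1.20 (log2) over all of them. Of its mutant UMIs, 62 came from 336 fibroblasts of the almost wholly mutant cluster numbered 22, at 12.2 CPM.

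No member was called in the blood endothelial gate by edgeR, where 0.113% of all genes were, a count of 6 that became 59 without the first mutant library and 2 with only the cells whose gate was that of their cluster. Of the 6 members tested there, 1 had an unadjusted p under 0.05, as did 6.52% of all genes, and DESeq2 called none. Tek was nearly level there, at -0.003 ± 0.25 (log2, SE), and Flt1 was at -0.24 ± 0.21. Vegfc was at 0.61 ± 0.27 and Angpt2 at 1.01 ± 0.51, neither past the threshold (adjusted p = 0.72 and 0.78, edgeR). Of the 29 mutant and 13 control Angpt2 UMIs of the gate, 10 and 9 lay in its main cluster, where the level was 12.1 CPM in mutant and 11.0 CPM in control cells. The mural marker Rgs5 was called lower in this gate. It stood at 23.8 and 8.76 CPM in mutant and 152 and 264 CPM in control libraries on the TMM scale. The 8 mural markers, 3 of them at 0, summed to 135 and 133 CPM in mutant and 225 and 401 CPM in control libraries. The 8 fibroblast markers summed to 290 and 759 CPM in mutant and 79.9 and 165 CPM in control libraries. The part of these markers in the member values was not tested. Mural Flt1 was at -1.19 ± 0.28 with an adjusted p of 0.18 (edgeR). Beside it the mural gate of mutant skin held more RNA of the fibroblast gene Dcn. It stood at 1004 and 786 CPM, against 119 and 149 CPM in control libraries on the TMM scale. The 8 fibroblast markers, Dcn included, summed to 2937 and 1839 CPM in mutant and 1213 and 1448 CPM in control mural cells. That shift was smaller than the one of Dcn. The part of this RNA in the Flt1 difference was not tested. The blood endothelial gate summed to 400467 to 490130 UMIs per library. In dermal sheath Flt1 had 37 and 50 mutant and 3 and 3 control UMIs, a change of 2.22 ± 0.49 that did not pass (adjusted p = 0.067, edgeR). Tek had 14 and 7 UMIs in mutant sheath and none in control sheath. Of the 470 mutant sheath cells, 177 lay in the clusters numbered 16 and 22, which held none of the 157 control sheath cells, and these cells carried 37 of the 87 mutant Flt1 UMIs and 17 of the 21 Tek UMIs. In the cluster numbered 24, Flt1 had 22.4 CPM in mutant and 2.27 CPM in control cells, from 18 mutant UMIs and 1 control UMI. Cdh5 was called higher in that gate, where 1.87% of all genes were called, at 20.4 and 16.99 CPM in mutant and 0 and 0 CPM in control libraries on the TMM scale. Its 8 blood endothelial markers summed to 320 and 297 CPM in mutant and 204 and 167 CPM in control libraries, none of them at 0, and their part in these counts was not tested.

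The ligands of papilla cells and fibroblasts had no call. Angpt1 in the papilla gate differed by -0.01 ± 0.14 (log2, SE) as a whole. By cluster it stood at 56.7 CPM in mutant and 35.4 CPM in control cells of the cluster numbered 13, at 18.9 CPM in mutant and 16.95 CPM in control cells of the cluster numbered 4, and at 7.08 CPM in the 368 mutant cells of the cluster numbered 16. Vegfa differed by 0.09 ± 0.09, Vegfd by 0.03 ± 0.19 and Vegfc by -0.35 ± 0.16 (smallest adjusted p = 0.15, edgeR). In fibroblasts Vegfa differed by 0.14 ± 0.08, Vegfc by -0.12 ± 0.08 and Vegfd by 0.09 ± 0.13 (smallest adjusted p = 0.31, edgeR). Of these ligand tests only papilla Vegfc had an unadjusted p under 0.05 (0.049), and DESeq2 called none.

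For 2 members the difference of genotype effects between papilla cells and fibroblasts passed the threshold, in a comparison where 4.25% of all genes were called. This fit had no library term, so the papilla and fibroblast sums of a library were treated as independent. For Kdr the effect was larger in papilla cells by 3.22 ± 0.69 (log2, SE; adjusted p = 0.0051, edgeR interaction term). For Tek it was lower in papilla cells, at -6.39 ± 1.90 (adjusted p = 0.039), but papilla cells had only 2 Tek UMIs in all, both in control libraries, so the size of that value depends on the small count added in the fit. In fibroblasts Kdr stood at 1.24 and 1.13 CPM in mutant and 3.32 and 1.65 CPM in control libraries, at -1.02 ± 0.41 (adjusted p = 0.15, edgeR). Both calls were lost without the clusters of 1 genotype (adjusted p = 0.096 for Kdr and 0.18 for Tek, edgeR), and DESeq2 gave neither an adjusted p. Both were also lost without the first mutant library and without the first control library (edgeR), fits with 1 library in a genotype. Tek also lost its call without the second library of either genotype (edgeR). The difference for Flt1 was 0.13 ± 0.32 and did not pass (adjusted p = 0.85, edgeR). Between the blood and lymphatic gates none of the 7 members tested was called by edgeR, with Vegfc the nearest at 3.37 ± 0.88 (adjusted p = 0.19), where 0.113% of all genes were called and 9.29% had an unadjusted p under 0.05. Of these 7, 1 had an unadjusted p under 0.05, and DESeq2 called none.

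Genes that work with these signals were counted from lists. Between the endothelial gates, 3 of 12 tested partners and modulators of VEGF and TIE receptors were higher in blood cells and 4 were higher in lymphatic cells. In this comparison 19.3% of all genes were called in either direction. Nrp1, the VEGF-A co-receptor, was 4.80 ± 0.45 (log2, SE) higher in blood cells, and Ptprb, the phosphatase that restrains TIE2, was 2.30 ± 0.23 higher. Nrp2, the co-receptor for VEGF-C, was lower in blood cells, at -2.11 ± 0.28, as was Sema3a, a guidance factor, at -3.06 ± 0.46. All 4 passed with adjusted p of at most 2.7e-07 (edgeR). The median of this list, -0.19, was near that of all genes, -0.16.

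Transcription factors and sprouting genes also divided between the gates, in the same comparison with 19.3% of all genes called. Of 16 endothelial transcription factors 4 were higher in blood cells, among them Sox17, an arterial factor, at 7.54 ± 0.55, and Epas1, a hypoxia-inducible factor, at 2.65 ± 0.18. Another 5 were lower in blood cells, among them Prox1 at -3.90 ± 0.26 and Nr2f2, the venous and lymphatic factor COUP-TFII, at -3.59 ± 0.25, and Prox1 is also a gate marker. Of 11 tested sprouting and tip cell genes 3 were higher in blood cells, Notch4 (4.08 ± 0.59), Cxcr4 (3.30 ± 0.56) and Nrarp (2.33 ± 0.41). Those lower in blood cells were the members Kdr and Angpt2 and the netrin receptor gene Unc5b (-1.62 ± 0.29). Among genes that process VEGF-C and VEGF-D, 2 of 8 were higher in blood cells, the proprotein convertase genes Pcsk5 (4.43 ± 0.44) and Furin (1.05 ± 0.15), and Plau, the urokinase gene, was lower (-1.74 ± 0.32). The hypoxia response list had 5 of 13 tested genes higher and 4 lower in blood cells, the list of secreted angiogenesis inhibitors 4 higher and 1 lower of 11, and the immediate early and heat shock list none higher and 4 lower of 14. Their medians were 0.23, 0.65 and -0.83, against -0.16 for all genes.

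By genotype, 2 of 70 tested genes of these lists were called in lymphatic and 0 of 66 in blood endothelial cells, where 0.697% and 0.113% of all genes were called. In lymphatic cells the only calls among 7 lists were Angpt2 itself and Angptl4, a secreted regulator of lipoprotein lipase, which stood at 140 and 129 CPM in mutant and 63.9 and 55.4 CPM in control libraries on the TMM scale (1.18 ± 0.17 log2, adjusted p = 4.4e-05, edgeR). Angptl4 was also higher in the mutant, under the fold minimum, in dermal sheath (0.98 ± 0.15, adjusted p = 0.020), fibroblasts (0.96 ± 0.05, adjusted p = 4.3e-07) and papilla cells (0.59 ± 0.08, adjusted p = 5.1e-05, edgeR). No gene of the 7 lists was called in the blood endothelial gate by edgeR, with 3 to 15 genes tested per list. Of the 66 genes tested there over all lists, 9 had an unadjusted p under 0.05, and DESeq2 called none. The immediate early and heat shock list had no call among its 14 genes in either endothelial gate by edgeR or DESeq2, with 1 in blood and 11 in lymphatic cells at an unadjusted p under 0.05 and with medians of -0.05 in blood and -0.20 in lymphatic cells against 0.01 and -0.01 for all genes.

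In papilla cells 14 of the 70 tested genes of the lists were called, and in fibroblasts 4 of 78, where 5.37% and 1.55% of all genes were called. In papilla cells 4 of 11 tested inhibitors of angiogenesis rose: Col15a1 (2.04 ± 0.09), Serpinf1, which codes for PEDF (1.98 ± 0.09), Timp3 (1.38 ± 0.09) and Col18a1, the source of endostatin (1.07 ± 0.22), with a list median of 0.76 against 0.00 for all genes. Serpinf1 reached 220 and 230 CPM in mutant and 53.6 and 61.2 CPM in control libraries on the TMM scale. In the fibroblast gate the same gene stood at 531 to 633 CPM and Col15a1 at 431 to 615 CPM over the 4 libraries on that scale. Fibroblast markers, none of the 8 at 0, summed to 1394 and 1474 CPM in mutant and 811 and 763 CPM in control papilla cells, and 369 of the 1248 mutant and 1 of the 445 control papilla cells lay in clusters of 1 genotype. The part of these in the rise of the inhibitors was not tested. Ccbe1, which VEGF-C needs for its cleavage, fell to 1.82 and 2.21 CPM in mutant papilla cells, against 10.9 and 11.0 CPM in control cells (-2.42 ± 0.28, adjusted p = 1.3e-05, edgeR). In the same gate the immediate early and heat shock list had 5 calls among 14 genes, all lower, among them Hspa1a (-1.55 ± 0.05), and the list median was -0.85. The other papilla calls besides Kdr were Angptl1, an angiopoietin-like gene (3.49 ± 0.74), Sox18, an endothelial transcription factor (1.16 ± 0.21), and Nrarp, a Notch target (-1.13 ± 0.31). In fibroblasts the processing genes Pcsk5 (1.67 ± 0.11) and Plat (1.01 ± 0.09) rose, as did 2 low endothelial genes, Sox18 (3.15 ± 0.45) and Esm1 (3.94 ± 0.85). In dermal sheath Pcsk5 rose by 2.52 ± 0.27 and Cxcl14 fell to 50.3 and 28.5 CPM in mutant cells, against 106 and 197 CPM in control cells on the TMM scale. Markers moved with genotype in that gate, its own list summing to 3939 and 3771 CPM in mutant and 8748 and 6347 CPM in control libraries. The mural list summed to 500 and 511 CPM in mutant and 1442 and 1134 CPM in control libraries, and the upper follicle keratinocyte list to 541 and 301 CPM in mutant and 1423 and 2041 CPM in control libraries, with no marker of the 3 lists at 0. Their part in the Pcsk5 and Cxcl14 differences was not tested, and the 184 genotype calls of the gate became 47 without the clusters of 1 genotype. Of the 14 hypoxia response genes, 8 to 13 were tested in papilla cells, fibroblasts, dermal sheath, mural cells and the endothelial gates, and none was called by edgeR. Between 0 and 5 of them had an unadjusted p under 0.05 in a gate, and DESeq2 called none. Some passed the adjusted threshold under the fold minimum (edgeR). Adm was higher in mutant lymphatic cells (0.98 ± 0.14, adjusted p = 3.8e-05, edgeR). In mutant papilla cells Adm (-0.82 ± 0.13, adjusted p = 0.00035, edgeR), Slc2a1 and Ndrg1 were lower, and Pgk1 and Egln1 were higher. Egln3 was lower in mutant fibroblasts (-0.77 ± 0.12, adjusted p = 0.0017, edgeR). Basal keratinocytes were not among these gates. All 14 hypoxia response genes were tested there, and edgeR and DESeq2 each called 1. An unadjusted p under 0.05 was found for 11 of them (edgeR), and 2.2% of all genes were called in that gate.

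Sorted GFP-positive cells, from Lepr-Cre;mTmG skin at postnatal day 50 and captured with an earlier chemistry, included 67 cells of the blood endothelial gate, 100 of the papilla gate and 61 of the fibroblast gate, and no lymphatic cell. Flt1 led among the members there, with 69 UMIs in sorted blood endothelial cells, or 283 CPM (exact 95% Poisson interval 220 to 359). Kdr had 45 UMIs, or 185 CPM (135 to 247), and Tek had 32 UMIs, or 131 CPM (89.9 to 186). The same gate had no UMI of Flt4, which allows up to 12.3 CPM, 1 of Vegfc and 2 of Vegfa. In the unsorted blood endothelial gate the corresponding levels were 10.6 to 37.5 CPM for Kdr, 59.9 to 104 CPM for Vegfc and 108 to 141 CPM for Vegfa. Chemistry, age and sorting differ between them, and 1 sorted library allows no test.

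Marker levels of the sorted endothelial cells were set beside those of the unsorted ones, again with no test. Plvap, a gene of fenestrated endothelium, stood at 1889 CPM in sorted and at 135 to 202 CPM in unsorted blood endothelial cells. Prox1 had no UMI in the sorted cells. Both genes are gate markers, so the choice of cells shapes their values. Cells with UMIs of both Flt1 and Kdr were 17 of 67 sorted cells. Of the ligands, Vegfd was the most frequent in sorted mesenchyme, with 8 UMIs each in papilla cells (29.2 CPM, 12.6 to 57.5) and fibroblasts (65.4 CPM, 28.3 to 129). Vegfa had 2 UMIs in the papilla gate, or 7.30 CPM (0.884 to 26.4), while unsorted papilla cells stood at 131 to 149 CPM. Over all 432 sorted cells, Vegfa had 20 UMIs and Angpt1 had 10. Crabp1, a papilla marker, stood at 2058 CPM in sorted endothelial and 7201 CPM in sorted papilla cells, and its presence was not tested as a cause of low member counts in other gates.

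**Figure D5:**
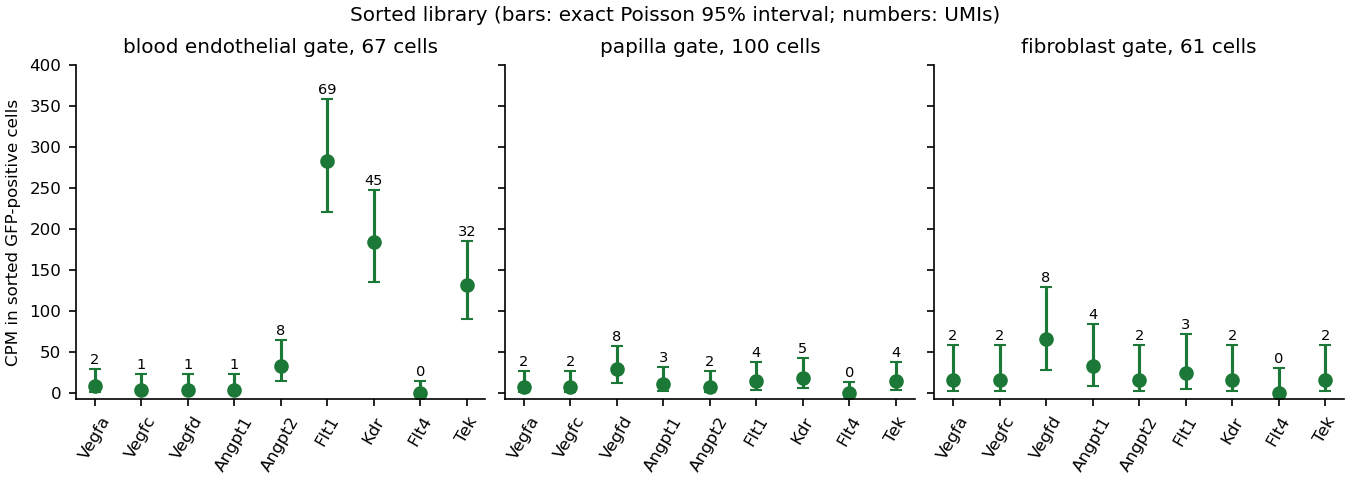
Levels (CPM) of the 9 members in 3 gates of the sorted GFP-positive library, with bars for the exact 95% Poisson interval and the number of UMIs above. Flt1, Kdr and Tek stand out in the blood endothelial gate, and no other member has more than 8 UMIs in any of the 3 gates.

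Across the 16 gates, the genes whose mean log2(CPM + 1) followed each member most closely were named by Pearson correlation, as a description over gates that share libraries and markers. Kdr was nearest to Pkhd1l1 (0.977), Cda (0.974) and the gate marker Prox1 (0.974), and Flt4 to Gpihbp1 (0.967). Gpihbp1, a lipoprotein lipase anchor known from capillaries, stood at 64.1 to 129 CPM in the lymphatic gate. Flt1 was nearest to Stom (0.917) and the gate marker Alpl (0.899), and Tek to C130074G19Rik (0.945). Among ligands, Angpt1 was nearest to the ephrin receptor gene Epha3 (0.916), Vegfc to the chemokine receptor gene Ackr1 (0.883), and Angpt2 to the gate marker Mmrn1 (0.879). Vegfd (Prkaa2, 0.851) and Vegfa (Ncoa7, 0.837) had the loosest nearest neighbours.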

How the data were processed

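Dorsal skin cells of 2 mutant and 2 control libraries, and 1 library of sorted GFP-positive cells, were captured on the 10x Chromium platform with 3′ chemistry v3 (unsorted) and v2 (sorted), per the labels' protocols. The authors deposited 1 matrix of whole-number UMI counts per gene and cell for each library. Per the submitters' processing notes, the tools were Cell Ranger (2.1.1 and 3.1.0), Scanpy 1.6.0 and Seurat 3.2.2, and the genome build was GRCm38, also written mm10; the role of each is not given in the sources used here. Libraries were grouped by the genotype in the labels.

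Cells with 500 to 8000 detected genes (300 to 8000 in the sorted library) and at most 10% mitochondrial UMIs were kept. Unsorted cells with a Scrublet score over 0.2 (Scanpy 1.11.5) were removed as doublets, 198 to 236 per library, and the sorted cells were not screened for doublets. The gate of a cell was the marker list with the highest scaled score, at least 0.3 and 0.1 above the next list, with at least 3 markers detected. These limits were set after seeing the data. The Leiden grouping (resolution 1.4, 2000 variable genes, 40 components, 15 neighbours) left the 9 genes out, so it does not use their values. The 9 genes, the marker lists and the other gene lists were chosen with earlier results of these data known.

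UMIs were summed per library and gate and tested with edgeR 4.0.16 (quasi-likelihood, TMM, filterByExpr), with Benjamini-Hochberg adjustment over all genes of a comparison. A call needs an adjusted p under 0.05 and a log2 change of at least 1. The SE is the log2 change over the square root of the F statistic. Comparisons of gates had the library as a block. Genotype effects in different gates were compared by an interaction term without a library term, which treats the gates of a library as independent. The fits were tested on simulated data. The text names every listed gene, from each other list up to 4 called genes with the largest change, and for each listed gene the genes most like it over gates, by Pearson's r of log2(CPM + 1) among genes with at least 10 CPM in a gate. Gate markers, the immediate early and heat shock genes of lymphatic cells, Car4, Gpihbp1, Vwf and Crabp1 were named after their values were seen. Promoters matched by symbol in the RefSeq table of GRCm38.p6 for 7 of the 9 genes. Alternatives were DESeq2, other filters, other gates, kept doublets, a block on replicate number and leaving out each library.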

Additional observations from a re-analysis of the deposited data

Results flagged for a closer look

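The genotype effect on Kdr was larger in papilla cells than in fibroblasts by 3.22 ± 0.69 (log2, SE; adjusted p = 0.0051, edgeR interaction term), which brought it here as a difference between gates under the same contrast. Papilla Kdr rested on 36 mutant and 6 control UMIs and fibroblast Kdr on 29 mutant and 33 control UMIs. The fit had no library term and so ignored that both gates came from the same libraries.

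The genotype effect on Tek differed by -6.39 ± 1.90 (adjusted p = 0.039, edgeR interaction term) in the same comparison. Fibroblasts had 196 mutant and 15 control Tek UMIs, and papilla cells had 0 mutant and 2 control UMIs.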

How the results depend on the processing

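Of 547 values of single genes under alternatives, over 38 results, 519 kept their direction and side of the threshold, 17 lost a call, 11 gained one and 0 changed direction. Genotype calls among the 9 genes numbered 4, and became 8 with every gene of at least 1 count, 7 with Leiden clusters given a gate, 9 with no fold minimum and 2 without clusters of 1 genotype. Leaving out 1 library, which leaves 1 library in a genotype, gave 5 to 6. Differences of genotype effects numbered 2, and became 0 with DESeq2, 1 with Leiden clusters and 0 without clusters of 1 genotype. Leaving out 1 library gave 0 to 1. Kdr in papilla cells was 2.22 with DESeq2 (log2). The 102 calls of the blood endothelial gate against other gates ranged over 78 to 106. Genotype calls over all genes numbered 6 in blood endothelial, 56 in lymphatic, 674 in papilla, 200 in fibroblast and 184 in dermal sheath cells, and over the alternatives ranged over 2 to 59, 16 to 238, 428 to 2756, 112 to 1248 and 47 to 672. The cause of these changes was not tested.

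The replicate block gave 4 genotype calls and changed no call among the 9 genes. A check of same-numbered libraries gave a Pearson r over genes of -0.143 to 0.103 in 16 gates (median -0.002). This r is not one of expression levels, and it cannot show whether the libraries shared a batch. A replicate block with crossed numbers, added after seeing the data, gave 6 calls.

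With Leiden clusters, blood endothelial cells were 0.695% of mutant and 0.603% of control cells, and lymphatic cells 4.21% and 3.36%. With the larger score margin, control shares were 0.394% for blood and 2.37% for lymphatic cells. Thinned to 4000 in place of 2000 UMIs, the share of cells with a UMI differed, mutant minus control, by 26.2 percentage points for Angpt2, 1.92 for Flt4 and 2.25 for Kdr in lymphatic cells and 8.54 for Tek in blood cells, where at 2000 UMIs these were 17.9, -15.6, -0.373 and -5.35. No order of thinned shares is therefore read for Flt4, Kdr or Tek. Counts limit which genes could be tested, since 56 of 144 pairs of a member and a gate passed the filter. In the blood endothelial gate, with 35 to 50 cells per library, 78.5% of simulated log2 changes of 1.5 and 98% of those of 2.5 were called. The simulation gave all genes a common dispersion and changed genes of any level that passed the filter. These rates therefore cannot say what change in a member would have been called.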
